A study of Mus musculus with 2 samples.

Results

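The genes flanking Kif13b on mouse chromosome 14 were followed in single-cell RNA sequencing of the aorta. They are 8 named genes (Msra, Hmbox1, Ints9, Extl3, Fzd3, Fbxo16, Zfp395 and Elp3) of the 33696 features in both count matrices. They were chosen as genes near Kif13b, with earlier results of these data known. They are not every gene of that stretch, as 28 annotated features lie within 1 Mb of Kif13b and Sox7, 704 kb upstream, was not taken. The study has 1 aorta library titled Kif13b-/- and 1 wild-type (WT) aorta library. The genotype label of the first reads "knock down" although its title writes a homozygous loss. Strain, age, sex, diet, the targeted allele, the number of animals behind each library and any allele shared by both libraries are not given in the sources used here. The series title sets KIF13B, a kinesin motor, beside MERTK, a receptor through which macrophages take up dying cells, in atherosclerosis. The question addressed here is whether the neighbours of the targeted gene shift together with it, in every cell class or in some.

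A gene altered in embryonic stem cells or by nuclease carries its flanking chromosome with it. Neighbours can therefore differ between a mutant and a control animal either because the lesion acts on them or because linked stretches of the donor strain come along, the second being known as the passenger or flanking-gene effect. Genes that lie head to head over a short gap often share a promoter region, whereas genes that lie tail to tail share the end where transcription stops, and 3' tag counts are read at that end.

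With 1 library per genotype there is no replicate and no test. A level is the number of unique molecular identifiers (UMIs, each standing for 1 captured RNA molecule) of a gene per 1000000 UMIs of the class (CPM). A log2 ratio is Kif13b-/- over WT, and its 95% interval reflects the number of molecules counted and carries no spread between animals. A gene counts as measured when the libraries together hold 20 or more of its UMIs, and as higher or lower at a ratio of 1.5 or more. Barcodes were clustered, and clusters were named only from markers, so that a class is called macrophage-like and so on.

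The Kif13b-/- library gave 6887 analysed barcodes with a median of 5749 UMIs, and the WT library 16686 with a median of 2392. Both held more barcodes than the 6000 cells loaded, and 38 of the analysed barcodes occurred in both libraries. The Kif13b-/- library was deeper in all 7 classes compared. 3880 barcodes (56.3%) of the Kif13b-/- library and 6156 (36.9%) of the WT library lay in clusters that met no name. 1 of these, cluster 3, held 1313 Kif13b-/- and 3 WT barcodes. It was led by Ighg2b, Trem2 and Apoe, and mitochondrial genes were also among its leading genes. Values over all barcodes are therefore also given without it. Macrophage-like cells numbered 828 and 2315, smooth muscle-like cells 764 and 1726, fibroblast-like cells 579 and 1582, endothelial-like cells 212 and 1149, and chondrocyte-like cells 335 and 2627, in each case the Kif13b-/- library before WT. T cell-like (90 and 196) and dendritic cell-like (87 and 210) classes were small. In 6 of these classes every defining marker stood above its level in the rest of the barcodes in both libraries, and in fibroblast-like cells 8 of 9 did. Chondrocyte-like cells made up 4.86% of Kif13b-/- and 15.7% of WT barcodes. Over all barcodes the 8 chondrocyte markers summed to 1165 against 3791 CPM (0 of 8 higher), and the 10 macrophage markers to 1936 against 1219 CPM (9 of 10 higher). The part of this make-up in the values over all barcodes, those of Kif13b and Zfp395 among them, was not tested.

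In the GENCODE M21 annotation of mm10, Kif13b lies on the plus strand at chr14:64647265-64809617. Msra, on the minus strand at chr14:64122625-64455903, is the only one of the 8 upstream of it, head to head across 191 kb. Downstream, Hmbox1 (minus strand, chr14:64811600-64949871) ends 1982 bp from the end of Kif13b, tail to tail. Ints9 (plus strand, chr14:64950045-65039832) starts 173 bp from the start of Hmbox1, head to head. Extl3 (minus strand, chr14:65052060-65149855) follows tail to tail with Ints9 after 12.2 kb, and Fzd3 (minus strand, chr14:65192449-65262463) after a further 42.6 kb. Fbxo16 (plus strand, chr14:65266618-65323973) starts 4.15 kb from the start of Fzd3. Zfp395 (plus strand, chr14:65358389-65398930) and Elp3 (minus strand, chr14:65530449-65593075) close the row, 549 and 721 kb from Kif13b. An annotated antisense RNA, 9630015K15Rik, overlaps the end of Msra over 4981 bp and had 22 Kif13b-/- and 31 WT UMIs. Gm48449 overlaps Zfp395 over 1022 bp on the other strand, with 3 and 5 UMIs. Whether reads were assigned by strand is not stated in the sources used here, so that Msra and Zfp395 counts could include such reads.

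Kif13b itself had 2628 UMIs (43.9 CPM) in the Kif13b-/- library, against 5810 (70.6 CPM) in the WT library, a log2 ratio of -0.69 (interval -0.75 to -0.62). Without cluster 3 the ratio was -0.49. These 2 values sat at percentiles 6.42 and 8.38 of all measured genes, of which 8.1% and 6.52% were lower by the fold. The transcript was thus lower but still present in the library labelled Kif13b-/-, and 3' tags outside a deleted part would not check the label. By class the log2 ratio of Kif13b was -0.80 in fibroblast-like, -0.59 in endothelial-like, -0.51 in chondrocyte-like, -0.37 in smooth muscle-like and -0.13 (interval -0.32 to 0.06) in macrophage-like cells. The macrophage-like value was the one nearest to 0 among these 5 classes, at 55.01 against 60.01 CPM. Under 13 other settings it ran from -0.43 to 0.02. Within the class, clusters 0 and 13 stood at -0.02 and -0.15, and cluster 21 at -0.68 (interval -1.38 to -0.03). The unnamed clusters 15 and 17, for which macrophage was the best-scoring class, stood at -0.68 (interval -1.38 to 0.03) and -0.78 (interval -1.27 to -0.33). Of 23 clusters with at least 50 cells in both libraries, Kif13b was below 0 in 22, 9 of them with an interval below 0. Here and below, clusters share the same 2 libraries and are not replicates, and such counts were not made over all genes.

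7 of the 8 neighbours were measured over all barcodes, and their log2 ratios ran from -0.37 for Zfp395 to 0.15 for Extl3. The intervals of Hmbox1, Fzd3 and Zfp395 lay below 0, that of Extl3 lay above 0, and those of Ints9, Elp3 and Msra included 0. 0 of 7 were past a ratio of 1.5 in either direction. Among all 19952 genes measured, 8.1% were lower and 4.54% higher by that fold, so that a count of 0 among 7 is near the background. Their summed UMIs made up 141 CPM in the Kif13b-/- library and 148 CPM in the WT library, a log2 ratio of -0.06 (interval -0.10 to -0.02). The median over the 7 was -0.04, and the median over all measured genes was -0.05. Without cluster 3 the summed ratio was 0.03 (interval -0.01 to 0.07), with 0 of 7 past the fold beside 6.52% of genes lower and 5.25% higher. The summed ratio thus changed sign with 1 cluster.

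**Figure D1:**
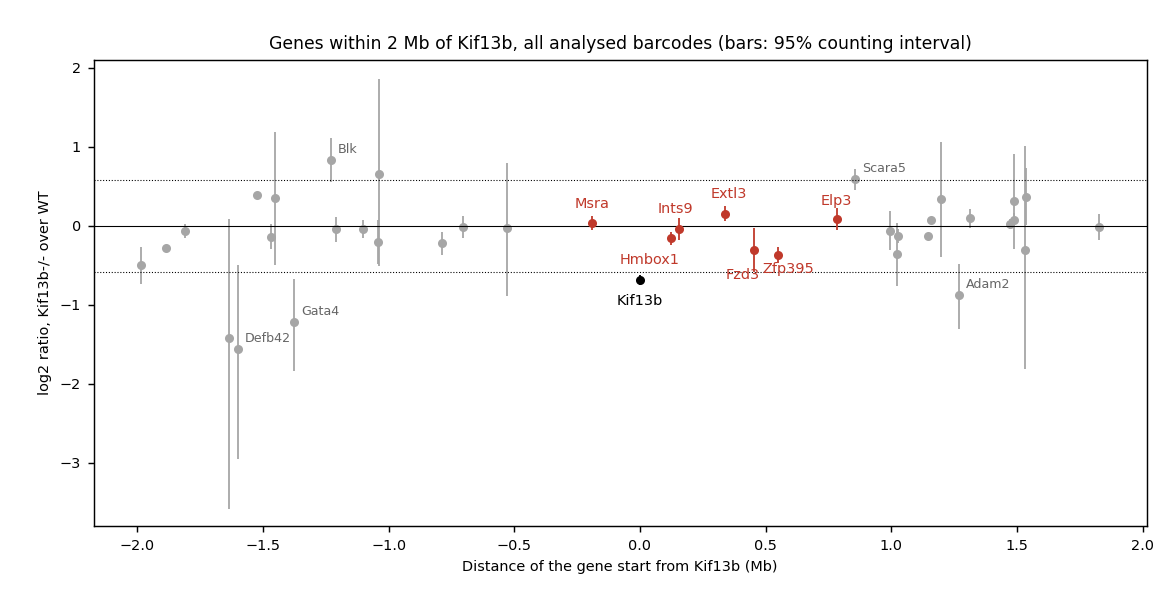
Log2 ratio (Kif13b-/- over WT, all analysed barcodes) of genes within 2 Mb of Kif13b with at least 20 UMIs, against the distance of each gene from Kif13b in Mb; bars are 95% counting intervals and dotted lines mark a ratio of 1.5. Kif13b (black) lies at -0.69 while the 7 measured neighbours (red) lie between -0.37 and 0.15; grey genes are the others in the window.

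The gene nearest to Kif13b is Hmbox1, a homeobox protein that binds telomeric repeats. It had 2120 UMIs (35.4 CPM) in the Kif13b-/- library, against 3256 (39.6 CPM) in the WT library, a log2 ratio of -0.16 (interval -0.24 to -0.08). Without cluster 3 that ratio was -0.03. In macrophage-like cells Hmbox1 stood at 33.1 against 32.8 CPM, a log2 ratio of 0.01 (interval -0.24 to 0.27). In the other 4 main classes it ran between -0.15 in chondrocyte-like and 0.13 in fibroblast-like cells, and each interval included 0. Of the 22 clusters where Hmbox1 was measured it was above 0 in 10 and below 0 in 12, 1 and 2 of them with an interval off 0. The 1 on the upper side was fibroblast-like cluster 11 (34.0 against 22.0 CPM, log2 ratio 0.62), where Kif13b had a log2 ratio of -0.72. The 2 on the lower side were smooth muscle-like cluster 4 (-0.41, interval -0.67 to -0.16), with Kif13b at -0.55, and the unnamed cluster 1 (-0.28, interval -0.50 to -0.06), with Kif13b at -0.49.

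Ints9 encodes a subunit of Integrator, the complex that cleaves nascent RNA, and starts head to head with Hmbox1. Over all barcodes it stood at 11.7 CPM in the Kif13b-/- library and 12.04 CPM in the WT library, a log2 ratio of -0.04 (interval -0.18 to 0.10). The largest value of Ints9 in the main classes was in chondrocyte-like cells, at 14.7 against 9.55 CPM from 45 and 155 UMIs, a log2 ratio of 0.63 (interval 0.11 to 1.11). Within that class it was 0.93 in cluster 7, led by Ibsp and Chad, and -0.11 in cluster 5, led by Col10a1. Chondrocyte markers summed to 11573 against 16532 CPM in this class, with 0 of 8 higher in Kif13b-/-, and their part in the value was not tested. Its 13.8 against 10.9 CPM in macrophage-like cells gave 0.35 (interval -0.07 to 0.77). In dendritic cell-like cells 9 and 25 UMIs gave -0.78 (interval -2.11 to 0.32). Ints9 and Hmbox1, whose starts lie 173 bp apart, showed a Pearson correlation of -0.04 between their ratios over 19 clusters that share the same 2 libraries. Ints9 was sparse in some of these (7 and 32 UMIs in cluster 5, interval -1.61 to 1.02). Counting error draws such a correlation towards 0, so that it cannot show whether the 2 genes shift together.

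Zfp395, a zinc finger DNA-binding protein, was below 0 in 15 of the 20 clusters where it was measured. Fzd3 was below 0 in 5 of 6, again clusters of the same 2 libraries. Zfp395 had 1149 UMIs (19.2 CPM) in the Kif13b-/- library, against 2042 (24.8 CPM) in the WT library, a log2 ratio of -0.37 (interval -0.48 to -0.26), or -0.28 without cluster 3. That value sat at percentile 15.9 of all measured genes. Every class where Zfp395 was measured gave a value below 0. In dendritic cell-like cells, with 4 and 11 UMIs, it was not measured. Of its cluster intervals 1 lay below 0, in the unnamed cluster 16 led by Notch3 and Pln.

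In macrophage-like cells Zfp395 had 75 UMIs (10.6 CPM) in the Kif13b-/- library, against 154 (17.1 CPM) in the WT library, a log2 ratio of -0.69 (interval -1.11 to -0.28). It was the only 1 of 7 measured neighbours past the fold there, beside 10.8% of all genes lower and 5.51% higher. The 3 macrophage-like clusters entered with unequal weights. Cluster 13, led by C1qa and C1qc, gave 68.3% of the class's UMIs in the Kif13b-/- library and 50.1% in the WT library, while cluster 0, led by the chemokines Ccl4 and Ccl3, gave 18.5% and 38.0%. Zfp395 stood at 7.43 against 9.75 CPM in cluster 13 and at 19.8 against 26.0 CPM in cluster 0. Within clusters 0, 13 and 21 the log2 ratios were -0.37, -0.39 and -0.46, each with an interval that included 0. The class value was thus further from 0 than that of any of its clusters. Under 13 other settings it ran from -0.72 to -0.16, and 4 of these stayed past the fold.

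Smooth muscle, chondrocyte and fibroblast markers moved in the same direction as Zfp395 in this class. The 8 smooth muscle markers summed to 2713 CPM in Kif13b-/- macrophage-like cells, against 4091 CPM in WT, with 0 of 8 higher in Kif13b-/-, and the 8 chondrocyte markers to 90.4 against 300 CPM, also with 0 of 8 higher. Fibroblast markers summed to 2611 against 3112 CPM (2 of 9 higher), and none of these 3 lists had a marker at 0 in either library. The 10 macrophage markers summed to 8941 against 7303 CPM, with all 10 higher. Markers of monocytes (129 against 128 CPM, 3 of 6 higher) and dendritic cells (127 against 112 CPM, 4 of 9 higher) also summed higher. So did lymphatic endothelial markers (325 against 264 CPM, 1 of 6 higher), while all the other lists of markers summed lower. Zfp395 itself was highest in smooth muscle-like cells, at 33.8 against 36.9 CPM, and next in chondrocyte-like cells, at 22.2 against 29.4 CPM. Where the RNA of these markers came from, and its part in the macrophage-like ratio of Zfp395, was not tested. In smooth muscle-like cells, where smooth muscle markers summed to 28256 and 29267 CPM, the log2 ratio of Zfp395 was -0.12 (interval -0.34 to 0.09).

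**Figure D2:**
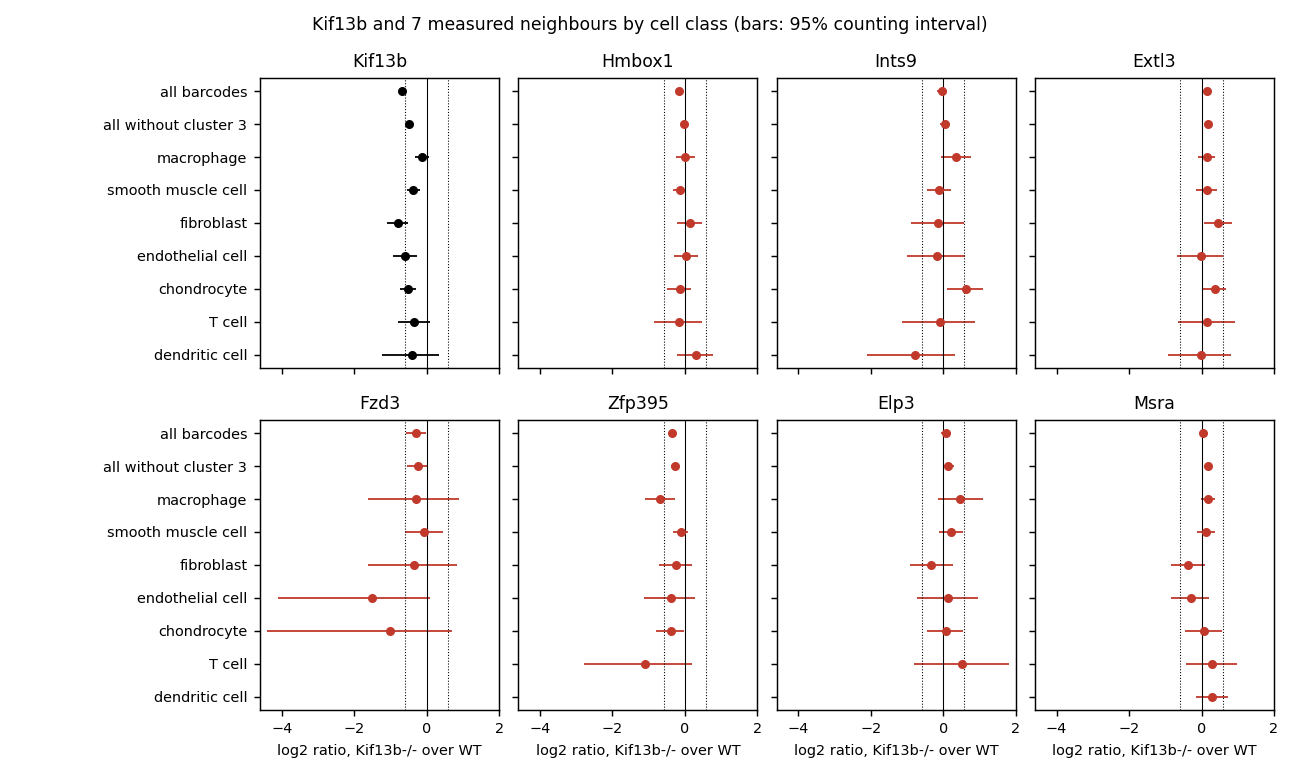
Log2 ratio (Kif13b-/- over WT) of Kif13b and the 7 measured neighbours over all barcodes, without cluster 3 and in each class; bars are 95% counting intervals, dotted lines mark a ratio of 1.5, and genes under 20 UMIs in a class are left out. Kif13b, Zfp395 and Fzd3 lie below 0 wherever they are plotted, Extl3 lies mostly above 0, and Hmbox1, Ints9, Elp3 and Msra fall on both sides.

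Extl3, a glycosyltransferase that starts heparan sulfate chains, went the other way. It had 27.1 CPM in the Kif13b-/- library, against 24.4 CPM in the WT library, a log2 ratio of 0.15 (interval 0.06 to 0.25), or 0.17 without cluster 3. In fibroblast-like cells 126 and 103 UMIs (33.3 against 24.2 CPM) gave 0.46 (interval 0.08 to 0.85), and in chondrocyte-like cells 29.7 against 23.2 CPM gave 0.36 (interval 0.01 to 0.69). Neither was past the fold, and the chondrocyte-like value was -0.47 with barcodes thinned to 1000 UMIs. Extl3 was above 0 in 17 of 23 clusters, 2 of them with an interval above 0, and its macrophage-like value was 0.14 (interval -0.10 to 0.38). In fibroblast-like cells its value came with unequal cluster weights, cluster 11 giving 72.3% of Kif13b-/- and 54.5% of WT UMIs. Smooth muscle markers in that class summed to 2107 against 4080 CPM and fibroblast markers to 23803 against 19017 CPM, and their part in it was not tested.

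Fibroblast-like cells had 0 of 7 measured neighbours past the fold, beside 10.3% of all genes lower and 6.61% higher. Smooth muscle-like cells, the class with the most UMIs of the 8 genes in the Kif13b-/- library (1503, against 1996 in WT), also had 0 of 7, beside 4.17% lower and 5.52% higher. There the 7 log2 ratios ran from -0.14 for Hmbox1 to 0.20 for Elp3, and no interval excluded 0. Kif13b in the same cells was at -0.37 (interval -0.55 to -0.20).

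Elp3, the catalytic subunit of the Elongator complex that modifies transfer RNA, stood at 12.03 against 11.35 CPM over all barcodes, a log2 ratio of 0.08 (interval -0.06 to 0.23). In macrophage-like cells 49 and 45 UMIs gave 0.47 (interval -0.14 to 1.09), and in fibroblast-like cells 43 and 61 UMIs gave -0.33 (interval -0.93 to 0.26). Elp3 was above 0 in 14 of 18 clusters, 1 of them with an interval above 0. Msra, the methionine sulfoxide reductase that repairs oxidized methionine and the only neighbour upstream of Kif13b, stood at 32.9 against 32.1 CPM, a log2 ratio of 0.04 (interval -0.05 to 0.12). Without cluster 3 Msra was at 0.17 (interval 0.08 to 0.25). Over clusters Msra was above 0 in 10 of 23 and below 0 in 13, with no interval off 0.

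Fzd3, a Frizzled receptor of Wnt and planar polarity signalling, was sparse, with 176 and 299 UMIs over all barcodes (2.94 against 3.63 CPM, log2 ratio -0.30, interval -0.58 to -0.03). It was the 1 call among 7 measured neighbours in endothelial-like cells, from 3 and 17 UMIs (-1.50, interval -4.10 to 0.10), beside 11.8% of genes lower and 8.11% higher in that class. In chondrocyte-like cells 2 and 26 UMIs gave -1.003 (interval -4.42 to 0.70), and Fzd3 and Ints9 were the 2 of 7 calls there, 1 lower beside 10% of genes and 1 higher beside 9.5%. Both Fzd3 intervals included 0, and the chondrocyte-like value turned to 0.80 with thinning. The endothelial-like class holds a cluster of 34 Kif13b-/- and 0 WT cells (cluster 45), and chondrocyte markers in the class summed to 2283 against 838 CPM (8 of 8 higher in Kif13b-/-). Smooth muscle markers, from the class where Fzd3 had its highest level, summed to 1904 against 3657 CPM (1 of 8 higher), and lymphatic endothelial markers to 67.9 against 835 CPM (0 of 6 higher). The part of these cells and markers in the Fzd3 value was not tested. Fbxo16, an F-box protein, had 7 UMIs in the Kif13b-/- library and 1 in the WT library and was not measured, so that no ratio is given.

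The T cell-like class had 1 lower call among 6 measured neighbours, beside 14.3% of genes lower and 10.9% higher. It was Zfp395, with 6 and 21 UMIs and a log2 ratio of -1.09 (interval -2.77 to 0.18). The dendritic cell-like class had 1 lower call among 4, Ints9, beside 9% lower and 10.3% higher. In the unnamed clusters together 0 of 7 were past the fold, beside 10.9% lower and 5.65% higher. There the summed ratio was -0.18 (interval -0.25 to -0.12), and the median over all measured genes was -0.13.

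Summed over the 8 genes, the log2 ratio was -0.12 (interval -0.34 to 0.09) in endothelial-like, -0.02 (-0.12 to 0.08) in smooth muscle-like, -0.01 (-0.19 to 0.16) in fibroblast-like, 0.02 (-0.15 to 0.17) in chondrocyte-like and 0.08 (-0.03 to 0.19) in macrophage-like cells. All 5 intervals included 0. Across the 23 clusters the summed ratio was above 0 in 9 and below 0 in 14, with a lowest value of -0.41, a median of -0.02 and a highest of 0.21. 1 interval lay above 0 and 0 lay below it. Kif13b was below the summed ratio of its neighbours in 23 of 23 clusters. The Pearson correlation over these clusters between the ratio of Kif13b and the summed ratio was 0.15, and with single neighbours it ran from -0.20 for Zfp395 to 0.56 for Msra. These counts and correlations describe clusters that share libraries and totals. Counting error in sparse genes also draws such correlations towards 0.

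**Figure D3:**
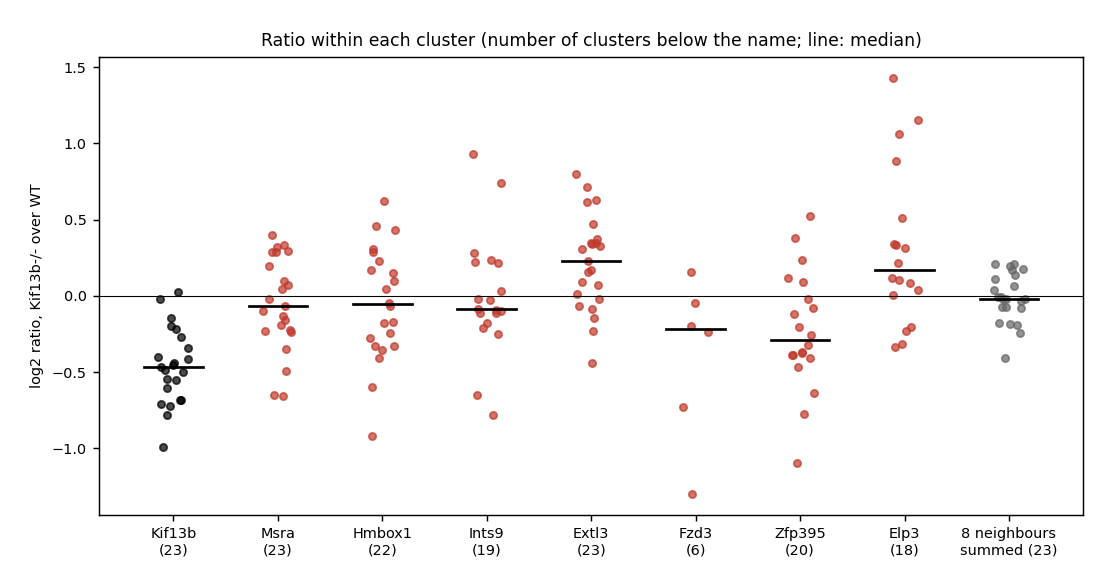
Log2 ratio (Kif13b-/- over WT) within each of the 23 clusters with at least 50 cells in both libraries, in gene order along the chromosome from Msra to Elp3 after Kif13b, with all 8 neighbours summed on the right; each point is 1 cluster with at least 20 UMIs of the gene and lines are medians. Kif13b is below 0 in 22 of 23 clusters (9 with an interval below 0) with a median of -0.47, and the summed neighbours have a median of -0.02. All clusters come from the same 2 libraries and are not replicates.

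Levels were also set in order across the 7 classes, where some genes shared their highest or lowest class. Kif13b, Ints9 and Extl3 were highest in T cell-like cells in both libraries, and Kif13b, Extl3, Zfp395 and Elp3 were lowest in dendritic cell-like cells in both. Kif13b was highest in T cell-like cells, at 114 against 145 CPM, and lowest in dendritic cell-like cells, at 16.9 against 22.6 CPM, in both cases apart from the next class by its interval in both libraries. Zfp395 was highest in smooth muscle-like cells in both libraries, with an interval above that of the next class, and lowest in dendritic cell-like cells (3.07 against 5.39 CPM). Msra had its highest level in macrophage-like cells, at 65.9 against 58.1 CPM, followed by T cell-like and dendritic cell-like cells with overlapping intervals. Its lowest level was in chondrocyte-like cells, at 13.0 against 12.5 CPM. Of all 23 clusters, the unnamed cluster 17, led by Oasl1 and Ifih1, stood out for Msra at 125 against 127 CPM (a cluster picked after its value was seen).

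Hmbox1 was highest in endothelial-like (65.9 against 64.2 CPM) and T cell-like cells (58.0 against 65.8 CPM), which did not differ beyond their intervals, and lowest in chondrocyte-like cells (28.02 against 31.24 CPM). That lowest level overlapped in interval with the next class in both libraries. Ints9 was highest in T cell-like cells, at 26.3 against 28.4 CPM from 15 and 25 UMIs. Extl3 was highest in T cell-like cells (43.9 against 39.7 CPM), next in macrophage-like cells (37.4 against 33.9 CPM) and lowest in dendritic cell-like cells (15.3 against 15.7 CPM), with T cell-like and macrophage-like intervals that overlapped. Fzd3 was highest in smooth muscle-like cells, at 6.31 against 6.66 CPM, and Elp3 was lowest in dendritic cell-like cells, at 3.84 against 2.94 CPM. Both overlapped in interval with the next class in both libraries, and Ints9 did so in the Kif13b-/- library.

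**Figure D4:**
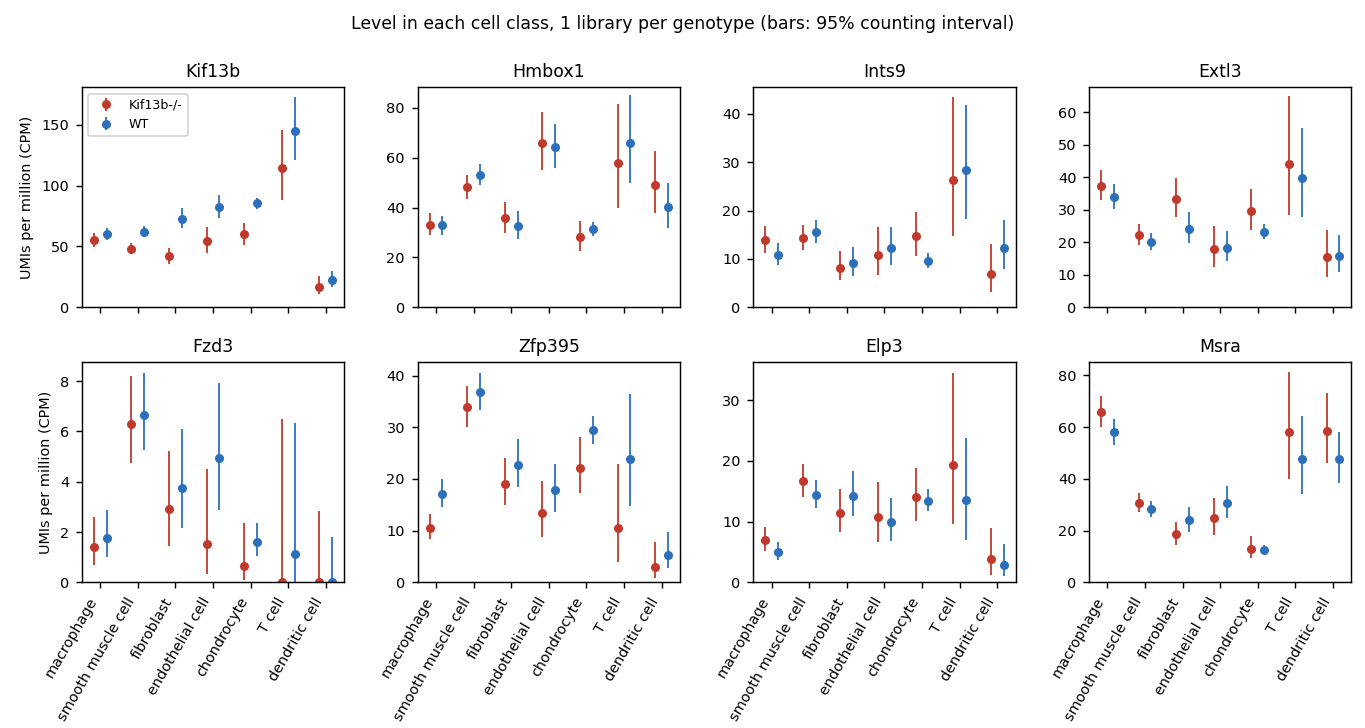
Level (UMIs per 1000000, linear axes from 0, scaled per gene) of Kif13b and 7 neighbours in each class, Kif13b-/- in red to the left of WT in blue; bars are 95% Poisson intervals. Msra is highest in macrophage-like and Zfp395 in smooth muscle-like cells, Kif13b, Ints9 and Extl3 are highest in T cell-like cells, and in most panels the difference between classes exceeds that between libraries.

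By a fixed measure, the Pearson correlation of log2(CPM + 10) over 14 points (7 classes in 2 libraries) among 9272 genes, each neighbour was set beside its most alike genes. Hmbox1 was nearest to Prps1 and Srsf4 (0.95 each), Ints9 to Copg2 (0.94) and Etaa1 (0.93), and Extl3 to Ikbke and Hgsnat (0.93 each). Zfp395 was nearest to Mlf1 and Wdpcp, Elp3 to Xrcc5 and Rnf181 (0.94 each), and Msra to Parp1 (0.97) and Abracl (0.96). Between the neighbours themselves the correlation was 0.45 for Hmbox1 and Ints9, which start head to head, and 0.71 for Zfp395 and Elp3. Kif13b had 0.70 with Elp3, 0.68 with Ints9, 0.62 with Extl3, 0.55 with Zfp395, 0.24 with Hmbox1 and -0.13 with Msra. Fzd3 and Fbxo16 were below the minimum level for this measure, and the points share libraries and depth.

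Within 1 Mb of Kif13b 12 of 28 annotated features were measured over all barcodes, with 1 higher and 0 lower and a median log2 ratio of -0.03. Between 1 and 2 Mb, 27 were measured, with 2 higher and 4 lower and a median of -0.05. Between 2 and 5 Mb, 44 were measured, with 1 higher and 5 lower and a median of -0.11. On the rest of chromosome 14, 30 of 591 were higher and 36 lower with a median of -0.06, and on other chromosomes 823 of 18539 were higher and 1470 lower with a median of -0.05. Kif13b is left out of these counts. Among 19 autosomes the median of chromosome 14 was number 10 from the lowest.

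Of 39 genes measured within 2 Mb over all barcodes, 3 were higher and 4 lower, beside 4.54% and 8.1% of all genes. Among those past the fold, 5 genes also had an interval off 0, a share that was not computed over all genes. Scara5, a ferritin receptor 857 kb downstream, stood at 16.6 against 11.1 CPM (log2 ratio 0.59), and Blk, a kinase of B cells that lies upstream, at 4.06 against 2.28 CPM (0.83). The 7 B cell markers summed over all barcodes to 172 against 25.9 CPM, with all 7 higher in Kif13b-/-, and their part in the value of Blk was not tested. Gata4, a transcription factor of heart and mesoderm, had 34 and 110 UMIs (-1.22), Adam2, a sperm surface protein, 71 and 180 UMIs (-0.88), and Defb42, a defensin, 8 and 34 UMIs (-1.56). The 2 other genes past it, Defb43 (-1.42) and Gm15918 (0.66), had intervals that included 0. All 5 stayed past the fold without cluster 3, between -1.89 and 0.94. In macrophage-like cells 30 genes within 2 Mb were measured, with 1 higher and 3 lower, beside 5.51% and 10.8% of all genes. They were Stmn4 (0.79) higher, and Zfp395, Serpine3 (-0.86) and Ephx2 (-0.81) lower (named after their values were seen). Ephx2 was higher in smooth muscle-like (0.61), fibroblast-like (0.61) and chondrocyte-like cells (0.90, likewise named after its values were seen).

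The complexes and families of the neighbours were taken from lists. Of 17 other Integrator genes, 17 were measured and 0 were past the fold over all barcodes, with a median log2 ratio of -0.05. Ints6, which also lies within 2 Mb of Kif13b, stood at 166 against 201 CPM (-0.28) and Nabp1 at 42.2 against 49.7 CPM (-0.24). In chondrocyte-like cells, where Ints9 was higher, 3 of 17 were higher (Ints1, Ints10 and Ints15, at 0.95, 0.82 and 0.99, named after their values were seen), 1 was lower and the median was -0.11, beside 9.5% of all genes higher and 10% lower in that class. Of 6 Elongator genes 0 were past the fold, with Elp5 at 0.08 and Elp4 at -0.36.

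Heparan sulfate synthesis, in which Extl3 acts, had 1 of 17 genes higher and 2 lower, beside 4.54% and 8.1% of all genes, with a median of 0.02. The 2 xylosyltransferases that begin the linker went opposite ways. Xylt1 stood at 151 against 259 CPM (-0.78), and Xylt2 at 9.37 against 5.49 CPM (0.77). Of 18 Frizzled and planar polarity genes 0 were past the fold over all barcodes, with Fzd1 at 0.14 and Fzd2 at 0.05. In macrophage-like cells 6 of 14 were lower and 0 higher, beside 10.8% and 5.51% of all genes, with a median of -0.46. Among them were Fzd1 (16.2 against 25.5 CPM) and Fzd7 (12.1 against 21.9 CPM). The smooth muscle and chondrocyte markers were also lower there, as given above, and their part in it was not tested.

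The methionine sulfoxide reductase and thioredoxin list had 0 of 7 past the fold (median 0.07, Txn1 at 0.06 and Txnrd1 at -0.12). The telomere list had 0 of 9 (median -0.19, Terf2 at -0.19 and Terf1 at -0.24), and the SCF and F-box list 0 of 11 (median -0.17, Fbxo11 at -0.19 and Rbx1 at -0.01). The close paralogue of Zfp395 found in the matrices, Zfp704, stood at 48.9 against 55.2 CPM (-0.18) over all barcodes. In the 5 main classes its log2 ratio ran from -0.21 in endothelial-like to 0.41 in macrophage-like cells. It was past the fold on the lower side in T cell-like cells (-4.73) and on the upper side in dendritic cell-like cells (0.85). Of all genes, 14.3% were lower in T cell-like and 10.3% higher in dendritic cell-like cells.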

How the data were processed

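The deposited files are 1 filtered matrix of UMI counts per library, made by the authors with Cell Ranger 8.0.1 per the file headers and mm10 per the submitters' processing notes, from 10x 3' version 3.1 libraries. 32012 of 33696 features (95.0%) matched GENCODE M21 by gene ID. The members and lists were chosen with earlier results of these data known.

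Filters of 500 UMIs, 300 genes and a mitochondrial maximum of 20% left these barcodes (7315 Kif13b-/-, 19832 WT). Scrublet marked 0 doublets automatically, so the top 428 (5.85%) and 3146 (15.9%) scores were removed, 0.8% per 1000 barcodes. Scanpy 1.11.5 (2000 variable genes, 30 components, 15 neighbours) and leidenalg 0.10.2 (resolution 1) gave 52 clusters, without integration. A cluster was named where at least 3 and 50% of a class's markers were raised 2-fold and found in 10% of its cells. It stayed unnamed with under 30 cells, a second such class within 0.5 log2, or more leading genes of another class. Low depth with no own marker among the leading genes also left it unnamed. Clusters 12 and 16 (leading genes) and 17 and 20 (second class) thus stayed unnamed although they met the marker rule. These thresholds were set after clusters were seen. Ratios used a prior count of 0.5, with exact binomial and Poisson intervals at 95%. The functions were run on simulated Poisson counts, which checks the code only, since such counts carry no spread between cells or animals. The analysed barcodes held 59847678 Kif13b-/- and 82275533 WT UMIs. Named genes were the 8 neighbours and Kif13b, genes within 2 Mb past the fold with an interval off 0, the 2 most counted genes of each list (past the fold where any was), and the 2 most alike genes.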

Additional observations from a re-analysis of the deposited data

How the results depend on the processing

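No paired analysis was possible because each genotype has 1 library. Over all barcodes the summed log2 ratio of the 8 neighbours (-0.06) was 0.035 with a mitochondrial maximum of 10%, 0.0073 with barcodes thinned to 1000 UMIs, 0.0039 without mitochondrial and ribosomal genes in the total, 0.028 without cluster 3, -0.13 with each cell weighing the same, -0.0086 with TMM scaling, -0.11 without Extl3 and -0.0099 without Zfp395. With the largest shared cluster alone it was 0.21 in macrophage-like, 0.18 in fibroblast-like and -0.19 in chondrocyte-like cells. Thinning gave 0.28 in smooth muscle-like and 0.15 in endothelial-like cells, scaling within libraries -0.14 in smooth muscle-like cells, and the median of members -0.25 in fibroblast-like cells. The causes were not tested.

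The 1 macrophage-like call (Zfp395) became 0 with doublets kept, at a UMI minimum of 2000 or at resolution 2, and 2 calls were made by marker score. Zfp395 there lay below 0 in all 13 settings, from -0.72 to -0.16, and past the fold in 4 of them (thinning, TMM scaling, mitochondrial and ribosomal genes left out, a prior count of 5), so that a count of 1 or 2 under the others is of other genes. Smooth muscle-like calls went to 2 with thinning, and fibroblast-like calls to 1 with thinning, equal cell weights or the largest cluster. The endothelial-like call became 0 by marker score, thinning or a gene minimum of 100 UMIs. The 2 chondrocyte-like calls became 1 with doublets kept, a mitochondrial maximum of 10%, a prior count of 5 or a minimum of 100 UMIs, and 0 at a UMI minimum of 2000, resolution 2, marker score or scaling within libraries. Of 42 values of single neighbours 31 turned sign under at least 1 setting (74 of 490 values under other settings). Among those with an interval off 0 or past the fold, signs turned for Fzd3 over all barcodes with thinning (0.24), for Ints9 in the largest chondrocyte-like cluster (-0.11), and in chondrocyte-like cells for Extl3 with thinning (-0.47) and for Fzd3 (1.25 with a mitochondrial maximum of 10%, 0.80 with thinning, 0.26 with a prior count of 5). Within 2 Mb of Kif13b the 4 lower genes became 2 at a minimum of 100 UMIs and 12 at 1 UMI, and the 3 higher ones 10 at 1 UMI.

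Extl3 stayed above 0 and Zfp395 below 0 in all 9 settings over all barcodes. Kif13b was below 0 in every setting tried except thinned macrophage-like cells (0.02). Leaving out cluster 3 and adding mixed macrophage clusters were chosen after seeing the data. Depth limits Fzd3 and Fbxo16 everywhere, and the T cell-like and dendritic cell-like classes for all 8 genes.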
